A study of Mus musculus with 11 samples.

Results

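The 9 genes described here encode transcription factors that carry cortical progenitors into neurons: Neurog1, Neurog2, Eomes, Tbr1, Neurod1, Neurod2, Neurod6, Bcl11a and Bcl11b. They were chosen by name from 21887 protein-coding genes of the RefSeq table, and all 9 were found in it. For each gene, every peak of Myc-tagged RARα that touched the gene span or the 50 kb on both sides was taken (mm10), and the windows are described from proneural through intermediate progenitor to neuronal factors. The data are CUT&RUN peak lists, in which an antibody against the Myc tag directs a nuclease to release the DNA around the tagged protein. The cells were Prom1-positive neural progenitors, isolated from embryonic cortex at E14 with magnetic beads. The libraries used were 3 from Foxc1 mutant and 3 from control embryos, all with the Myc-tag antibody. The sources used here name no Foxc1 allele, no driver of the tagged receptor and no cells to which it was restricted, and they do not state that replicates are different embryos. The p-values below therefore reflect library-to-library spread, which may be technical. The title of the series names retinoic acid from the meninges, neurogenesis, Notch and Sox2. The series also lists 5 isotype libraries (2 mutant, 3 control); they were not used here, and their background level is not set beside the values.

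As background, neurogenesis in the dorsal cortex runs through a cascade of transcription factors. Proneural basic helix-loop-helix factors of the Neurog family start it in radial glia, Eomes (also called Tbr2) marks intermediate progenitors, and Neurod factors, Tbr1 and the zinc finger proteins Bcl11a (Ctip1) and Bcl11b (Ctip2) act in young and maturing neurons. RARα, a retinoic acid receptor, sits on DNA with RXR partners at repeats of a short core motif and responds to its ligand, which the embryonic meninges make and which Foxc1 mutants, whose meninges form poorly, are known to receive less of.

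Promoter sequences are shown for the only gene with a receptor core motif before its start site, Neurog1, and for 4 genes with a peak over that stretch, Neurod1, Neurod6, Bcl11a and Bcl11b. Each is the 250 bases before the RefSeq start site (GRCm38.p6), read 5′ to 3′ in the direction of transcription, and capitals mark the core motif.
Neurog1 (chr13:56252181-56252430, minus strand): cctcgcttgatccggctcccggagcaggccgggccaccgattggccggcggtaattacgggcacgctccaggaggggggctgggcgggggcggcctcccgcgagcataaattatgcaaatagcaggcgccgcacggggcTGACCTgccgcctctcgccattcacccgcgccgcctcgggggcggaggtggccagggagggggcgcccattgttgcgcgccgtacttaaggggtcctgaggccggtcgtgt
Neurod1 (chr2:79456637-79456886, minus strand): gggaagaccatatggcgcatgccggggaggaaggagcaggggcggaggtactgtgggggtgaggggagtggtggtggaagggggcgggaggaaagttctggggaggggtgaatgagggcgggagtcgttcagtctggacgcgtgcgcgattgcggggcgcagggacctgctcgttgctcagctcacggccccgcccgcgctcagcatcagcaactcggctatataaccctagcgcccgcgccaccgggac
Neurod6 (chr6:55681264-55681513, minus strand): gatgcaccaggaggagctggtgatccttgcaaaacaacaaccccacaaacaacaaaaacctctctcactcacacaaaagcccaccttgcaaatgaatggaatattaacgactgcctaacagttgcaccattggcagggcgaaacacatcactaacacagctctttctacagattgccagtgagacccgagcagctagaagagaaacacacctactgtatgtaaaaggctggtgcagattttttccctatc
Bcl11a (chr11:24080445-24080694, plus strand): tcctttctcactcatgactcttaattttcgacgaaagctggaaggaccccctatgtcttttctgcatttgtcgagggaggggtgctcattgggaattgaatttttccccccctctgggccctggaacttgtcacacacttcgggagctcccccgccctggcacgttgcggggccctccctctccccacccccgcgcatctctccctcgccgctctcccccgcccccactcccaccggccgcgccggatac
Bcl11b (chr12:108003415-108003664, minus strand): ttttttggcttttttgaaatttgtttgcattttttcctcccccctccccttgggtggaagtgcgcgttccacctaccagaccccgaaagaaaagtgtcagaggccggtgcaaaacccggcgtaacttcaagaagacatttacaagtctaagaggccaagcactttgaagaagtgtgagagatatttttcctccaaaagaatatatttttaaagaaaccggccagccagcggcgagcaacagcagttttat
The core motif was searched on both strands in 4 spellings: AGGTCA (the consensus), a first-base change (GGGTCA), a change at the third base (AGTTCA), or both of these (GGTTCA). The Neurog1 promoter held 1 match, TGACCT, which is AGGTCA on the other strand and begins 111 bases before the start site. AGGTCA occurred in 12.6% of 17492 promoters of the same length, and any of the 4 spellings in 36.3%, against 1 of the 9 genes. Direct repeats of the 4 spellings with spacers of 1, 2 or 5 bases were found in none of the 9 and in 0.114%, 0.0743% and 0.0800% of all promoters. No library had a peak over the 250 bases of Neurog1. Peaks of mutant replicates 2 and 3 lay over those of Neurod1, Bcl11a and Bcl11b, and a peak of control replicate 1 lay over those of Neurod6 and Neurog2.

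The libraries differed in list length far more than the 9 windows did among themselves. The mutant libraries held 54112, 410562 and 513290 peaks in replicates 1, 2 and 3 and the control libraries 86446, 11869 and 30273, covering 1.46%, 12.3% and 15.7% of the chromosomes in mutant and 8.07%, 0.148% and 0.326% in control libraries. Height is given in steps, the smallest signal unit of a library, and heights of different libraries are not comparable. Median height was 4, 4 and 4 steps in mutant and 10, 2 and 2 steps in control replicates 1, 2 and 3, and median width 679, 735 and 737 bp in mutant and 2327, 304 and 260 bp in control replicates. Control replicates 2 and 3 stand apart with short lists of narrow peaks, and control replicate 1 with wide ones. Because of this, the number of peaks in a window is set beside the number expected from the density of the same library and beside all end-to-end windows of the same width on the 21 standard chromosomes.

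Nearly every one of the 9 genes had a peak somewhere in its window in the longer lists, and so did nearly every gene. At least 1 peak fell in the windows of 8, 9 and 9 of the 9 genes for mutant replicates 1, 2 and 3, against 89.2%, 97.2% and 96.9% of all genes. In control replicates 1, 2 and 3 the number was 9, 3 and 5, against 93.8%, 41.4% and 72.8% of all genes. The windows together held 17, 178 and 243 peaks in mutant replicates, where 22.9, 174 and 217 would be expected if peaks were spread evenly. They held 43, 4 and 8 peaks in control replicates, where 36.6, 5.02 and 12.8 would be expected. Relative to an even spread the totals were 0.742, 1.02 and 1.12 times as high in mutant replicates and 1.18, 0.796 and 0.624 times as high in control replicates, so that both genotypes had libraries above and below it. More peaks than expected were found for 2, 5 and 5 of the 9 genes in mutant replicates, against 43.5%, 44% and 36.6% of all genes. In control replicates it was 5, 3 and 1, against 56.3%, 38.3% and 36.2%. The number of peaks lay above the median of same-width windows for 2, 4 and 5 genes in mutant and 5, 3 and 1 in control replicates. It lay below that median for 5, 4 and 4 genes in mutant and 4, 2 and 4 in control replicates.

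**Figure D1:**
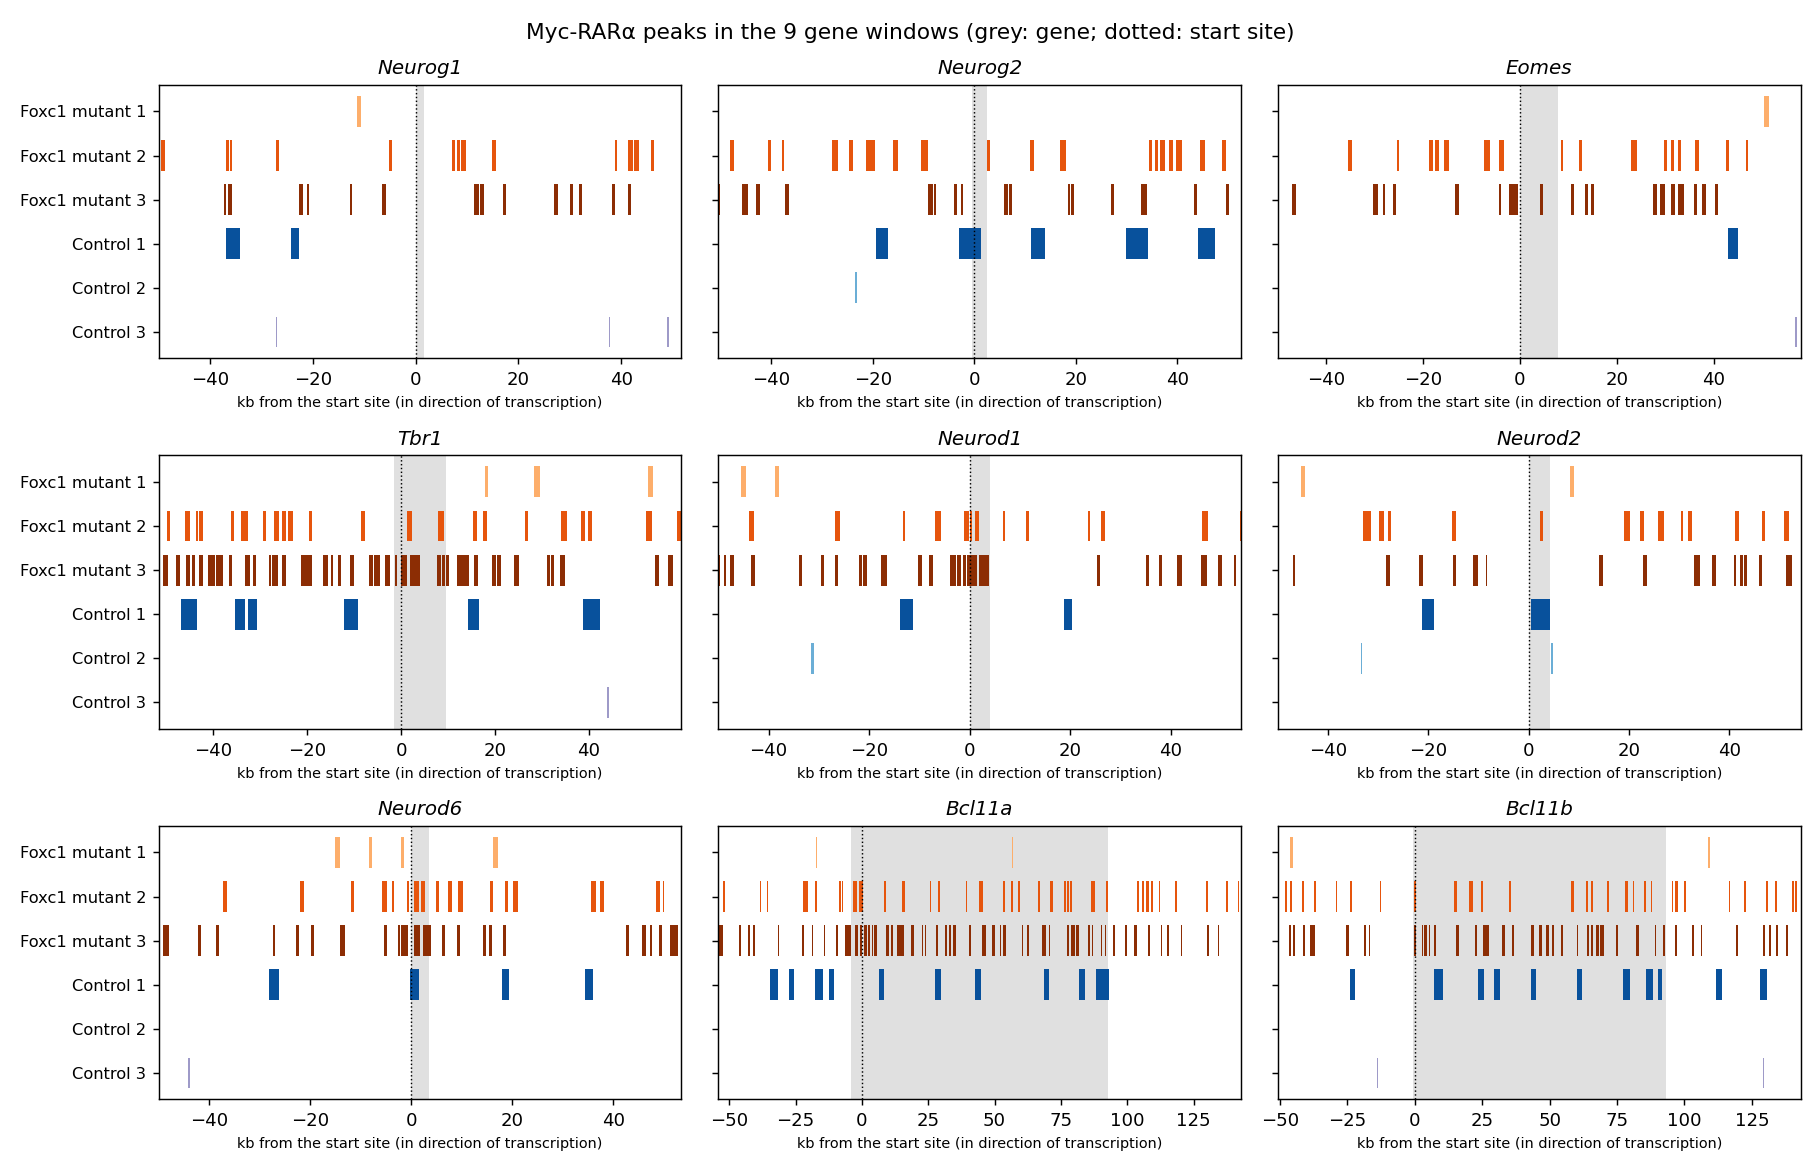
Position of every peak in the 9 windows, as distance in kb from the start site in the direction of transcription, with 1 row per library (3 Foxc1 mutant above 3 control). Grey marks the gene and the dotted line its start site, and peaks under 0.25 kb are drawn at that width; mutant replicates 2 and 3 fill most windows, control replicates 2 and 3 hold 0 to 3 peaks in each.

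Neurog1, a proneural factor that commits progenitors to neuronal fate, had no peak over the gene in any library. The length of the gene, with peak width not added, would give 0.0346, 0.263 and 0.328 peaks in mutant and 0.0553, 0.0076 and 0.0194 in control replicates. Its window held 1, 13 and 14 peaks in the mutant replicates (1, 2 and 3), against 2, 0 and 3 for the control replicates. The expected numbers were 2.07, 15.7 and 19.6 in mutant and 3.30, 0.454 and 1.16 in control libraries, so that control replicate 3 alone lay above its density. The peak nearest to the start site lay 4.58 kb before it in mutant replicate 2. The tallest peaks were 6, 5 and 7 steps high in the mutant libraries and 10 and 2 steps in control replicates 1 and 3. The only region held by 3 libraries, chr13:56286309-56289063, lay 34.1 kb before the start site over Cxcl14, which encodes a chemokine, with 5 and 3 steps in mutant replicates 2 and 3 and 9 steps in control replicate 1.

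Neurog2, the main proneural factor of the dorsal cortex, had 0, 18 and 17 peaks in mutant replicates 1, 2 and 3 and 5, 1 and 0 in control replicates. Mutant replicate 1 had no peak in this window, the only such case among the mutant libraries, where 2.09 were expected. Over the gene itself a single library had a peak, control replicate 1, at chr3:127630103-127634504, 4402 bp wide and 11 steps high, across the start site. The nearest peaks of mutant replicates 2 and 3 lay 2.50 kb after and 2.19 kb before the start site. No region of this window was held by 3 libraries. The tallest peaks of mutant replicate 2 (7 steps) and control replicate 2 (2 steps) lay over Zgrf1, and that of control replicate 1 (12 steps) over Alpk1, which are the neighbouring genes.

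Eomes, the T-box factor of intermediate progenitors, carried few peaks outside the 2 longest lists. There were 1, 17 and 18 peaks in the mutant replicates (1, 2 and 3), against 1, 0 and 1 for the control replicates. Expected numbers were 2.19, 16.7 and 20.8 in mutant and 3.51, 0.481 and 1.23 in control libraries. Mutant replicate 3 alone had a peak over the gene, of 4 steps, and another of 7 steps, chr9:118475861-118477842, that ended 0.347 kb before the start site. In the 5 libraries with any peak, a peak of the greatest height in the window lay at least 27.5 kb after the start site, over the neighbour Golga4, a Golgi protein gene, at 5, 6 and 9 steps in mutant replicates and 11 and 2 steps in control replicates 1 and 3. In mutant replicate 2 another peak of 6 steps, chr9:118427941-118428468, lay before the start site and over no gene. The peak of 9 steps in mutant replicate 3 was the tallest of that library in the 9 windows, and 0.700% of its peaks were at least as tall.

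Tbr1, the T-box factor of deep layer neurons, had the highest peak density relative to expectation of the 9 genes in mutant replicates 2 and 3. It had 3, 22 and 37 peaks in mutant replicates 1, 2 and 3, where 2.26, 17.2 and 21.5 were expected, and 6, 0 and 1 in control replicates, where 3.61, 0.496 and 1.27 were expected. Of windows of the same width, 2.69% held at least 37 peaks in mutant replicate 3 and 25.9% at least 22 in mutant replicate 2. In control replicate 1, 19.4% held at least 6. The 2.69% is the lowest such share over the 9 genes and 6 libraries. In mutant replicate 3 the other genes ran from 13.8% (Bcl11a) to 81.5% (Neurog1). The lowest share in each other library was between 8.26% and 25.9%. Over the gene lay 0, 2 and 6 peaks in mutant replicates, where its length would give 0.229, 1.74 and 2.17. None lay there in control replicates, where it would give 0.365, 0.0502 and 0.128. The empty gene in control replicate 1 is thus near what its length gives. Peaks of control replicate 1 met those of mutant replicates 2 and 3 in 3 regions. They were chr2:61757694-61761168 and chr2:61769171-61773885 over Psmd14, a proteasome subunit gene, and chr2:61816264-61821012, 11.8 kb after the start site. Heights there were 5, 8 and 4 steps in mutant replicate 2, 6, 5 and 6 in mutant replicate 3 and 10, 9 and 8 in control replicate 1.

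Neurod1, a neuronal differentiation factor switched on after Neurog2, had 2, 13 and 24 peaks in mutant replicates 1, 2 and 3 and 2, 1 and 0 in control replicates. Expected numbers were 2.11, 16.04 and 20.1 in mutant and 3.38, 0.464 and 1.18 in control libraries. Mutant replicate 3 had a peak of 7 steps across its start site, chr2:79455144-79457102, and mutant replicate 2 had peaks of 6 and 5 steps on both sides of the start site, 0.057 kb after and 0.032 kb before it, with none across it. That peak of mutant replicate 3 was among the highest 0.245% of the library by total signal, a value that also grows with width. By height, 6.07% of the peaks of that library were at least as tall. The nearest control peaks lay 11.2 kb before the start site in control replicate 1 and 31.0 kb before it in control replicate 2. No region was held by 3 libraries.

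Neurod2, a factor of maturing projection neurons, sits in the most gene-rich of the windows, with 4 other protein-coding genes, Cdk12, Gm33099, Ppp1r1b and Stard3. It had 2, 14 and 15 peaks in mutant replicates 1, 2 and 3 and 2, 2 and 0 in control replicates. The mutant numbers were below expectation in all 3 replicates (2.12, 16.1 and 20.1), and among controls replicate 2 alone was above it (0.465 expected). The gene carried a peak of 10 steps in control replicate 1, chr11:98325355-98329122, across nearly all of it, and one of 3 steps in mutant replicate 2. No region was held by 3 libraries.

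Neurod6, a factor of postmitotic excitatory neurons, had the peaks that recurred most often close to a start site. It had 4, 18 and 22 peaks in mutant replicates 1, 2 and 3, where 2.10, 15.96 and 19.95 were expected, and 4, 0 and 1 in control replicates, where 3.36, 0.461 and 1.18 were expected. The region chr6:55679482-55681490 was held by mutant replicates 2 and 3 (7 and 8 steps) and control replicate 1 (10 steps). Over the start site itself only the peak of control replicate 1 reached, while those of mutant replicates 2 and 3 stopped 0.462 and 0.489 kb after it, inside the gene. The peak of mutant replicate 3 was its tallest in the window, and that of mutant replicate 2 tied with 1 other, chr6:55631981-55632783, past the end of the gene. Of the peaks of mutant replicates 2 and 3, 4.58% and 2.07% were at least as tall, while 55.5% of the peaks of control replicate 1 reached 10 steps. A second region, chr6:55681663-55683274, began 0.4 kb before the start site. All 3 mutant replicates held it, at 4, 5 and 5 steps, and no control library did. The peaks of mutant replicates 1 and 2 there did not overlap each other and were joined through that of mutant replicate 3. Another region, chr6:55664023-55665896, lay 15.4 kb after the start site. All 3 mutant replicates also held this one, at 3, 4 and 3 steps, and no control library did. The peaks of mutant replicates 1 and 3 there did not overlap each other and were joined through that of mutant replicate 2. The tallest control peak of the window, 17 steps in control replicate 1 at chr6:55661999-55663390, overlapped a 3-step peak of mutant replicate 2 and a 7-step peak of mutant replicate 3.

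Bcl11a, a zinc finger factor of upper and deep layer neurons, spans 97.0 kb, so that its window measured 197 kb. It had 2, 34 and 53 peaks in mutant replicates 1, 2 and 3, where 4.01, 30.4 and 37.99 were expected, and 10, 0 and 0 in control replicates, where 6.40, 0.879 and 2.24 were expected. Over the gene lay 1, 18 and 33 peaks in mutant replicates, where its length would give 1.97, 15.0 and 18.7, and 6, 0 and 0 in control replicates, where it would give 3.15, 0.433 and 1.10. Mutant replicates 2 and 3 and control replicate 1 thus had more peaks over the gene than its length gives, and control replicates 2 and 3 were empty throughout. Peaks of 8 and 6 steps in mutant replicate 3 and of 5 steps in mutant replicate 2 lay within 1 kb of the start site. Of the 4 regions held by 3 libraries, 3 lay over the gene, 1 of them reaching past its end, and were held by mutant replicates 2 and 3 and control replicate 1. They were chr11:24108140-24110466, chr11:24123148-24127582 and chr11:24169113-24173655. Heights there were 4, 4 and 7 steps in mutant replicate 2 and 3, 5 and 6 steps in mutant replicate 3. In control replicate 1 they were 7, 10 and 12 steps. In chr11:24123148-24127582 the peaks of control replicate 1 and mutant replicate 3 did not overlap each other and were joined through that of mutant replicate 2. The remaining region, chr11:24062859-24065937, 14.8 kb before the start site, was held by mutant replicates 1 and 2 (4 and 3 steps) and by control replicate 1 at 18 steps, a height that 0.951% of its peaks reached.

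Bcl11b, the related factor of subcortical projection neurons, spans 93.7 kb. Its window held 2, 29 and 43 peaks in mutant replicates 1, 2 and 3, where 3.94, 29.9 and 37.4 were expected, and 11, 0 and 2 in control replicates, where 6.29, 0.864 and 2.20 were expected. Over the gene lay 0, 13 and 27 peaks in mutant replicates, where its length would give 1.91, 14.5 and 18.1, and 8, 0 and 0 in control replicates, where it would give 3.04, 0.418 and 1.07. Mutant replicate 3 and control replicate 1 were the libraries with more peaks over the gene than its length gives. The start site lay under a 7-step peak of mutant replicate 2 and a 5-step peak of mutant replicate 3. The only region of the 9 windows held by 4 libraries, chr12:107872469-107875530, lay 128 kb after the start site and past the end of the gene, with 4 and 4 steps in mutant replicates 2 and 3 and 7 and 2 steps in control replicates 1 and 3. Inside the gene, chr12:107977497-107980000 was held by mutant replicates 2 and 3, at 5 steps in each, and by control replicate 1 at 14 steps, a height that 1 other of its peaks in this window also had and none exceeded. A region 45.3 kb before the start site, chr12:108048677-108050127, was held by all 3 mutant replicates, at 4, 3 and 4 steps, and by no control library.

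None of the 9 genes differed between mutant and control libraries in peak density by more than the spread between libraries. Density was taken as log2 of the observed over the expected number of peaks, each plus 0.5, and was tested with limma over the 21276 genes with a peak in at least 2 libraries, with Benjamini-Hochberg adjustment over all of them. Neurog1 averaged -0.50 ± 0.26 in mutant and -0.15 ± 1.08 in control libraries (SD, n = 3 each). Neurog2 averaged -0.81 ± 1.37 in mutant and -0.19 ± 1.34 in control libraries. Eomes averaged -0.34 ± 0.45 in mutant and -0.86 ± 0.61 in control libraries. The control values were spread more widely than the mutant values in these genes except Neurog2, and control replicates 2 and 3 had 0 to 3 peaks in a window. Tbr1 averaged 0.49 ± 0.25 in mutant and -0.19 ± 0.83 in control libraries. Neurod6 averaged 0.37 ± 0.37 in mutant and -0.29 ± 0.59 in control libraries. Neurod1 averaged -0.03 ± 0.27 in mutant and -0.58 ± 1.20 in control libraries, and Neurod2 -0.22 ± 0.17 in mutant and -0.34 ± 1.58 in control libraries. Bcl11a averaged -0.07 ± 0.69 in mutant and -1.10 ± 1.56 in control libraries. Bcl11b averaged -0.22 ± 0.54 in mutant and -0.27 ± 1.11 in control libraries. Values of the mutant and control libraries overlapped in each of the 9 genes, while among all fitted genes 5.91% had every mutant value above and 5.48% every mutant value below the control values.

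The difference of mutant minus control was positive in 7 of the 9 genes, against 11893 of the 21276 fitted genes. It was negative in both Neurog genes. It changed sign under at least 1 alternative setting in all of the 9 except Eomes and Neurod6. It was largest for Bcl11a, at 1.03 ± 0.76 (limma standard error, adjusted p = 0.920), followed by Tbr1 at 0.68 ± 0.53 (adjusted p = 0.920) and Neurod6 at 0.66 ± 0.55 (adjusted p = 0.925). Neurod1 and Eomes lay at 0.55 ± 0.66 and 0.52 ± 0.70, and Neurod2 and Bcl11b at 0.11 ± 0.69 and 0.04 ± 0.65. Neurog1 and Neurog2 lay at -0.35 ± 0.66 and -0.61 ± 0.76, and the adjusted p of these 6 genes was 0.936 to 0.996. The median of the 9 differences was 0.52, against 0.10 over all fitted genes, and no p was taken for it. Leaving out control replicates 2 and 3 together leaves a single control library, assumed to vary like the others. The difference was then -0.68 for Bcl11a and -0.17 for Tbr1. The median of the 9 was 0.10, against -0.24 over all fitted genes in that setting. In the windows of Bcl11a and Tbr1 control replicates 2 and 3 had 0 or 1 peak.

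**Figure D2:**
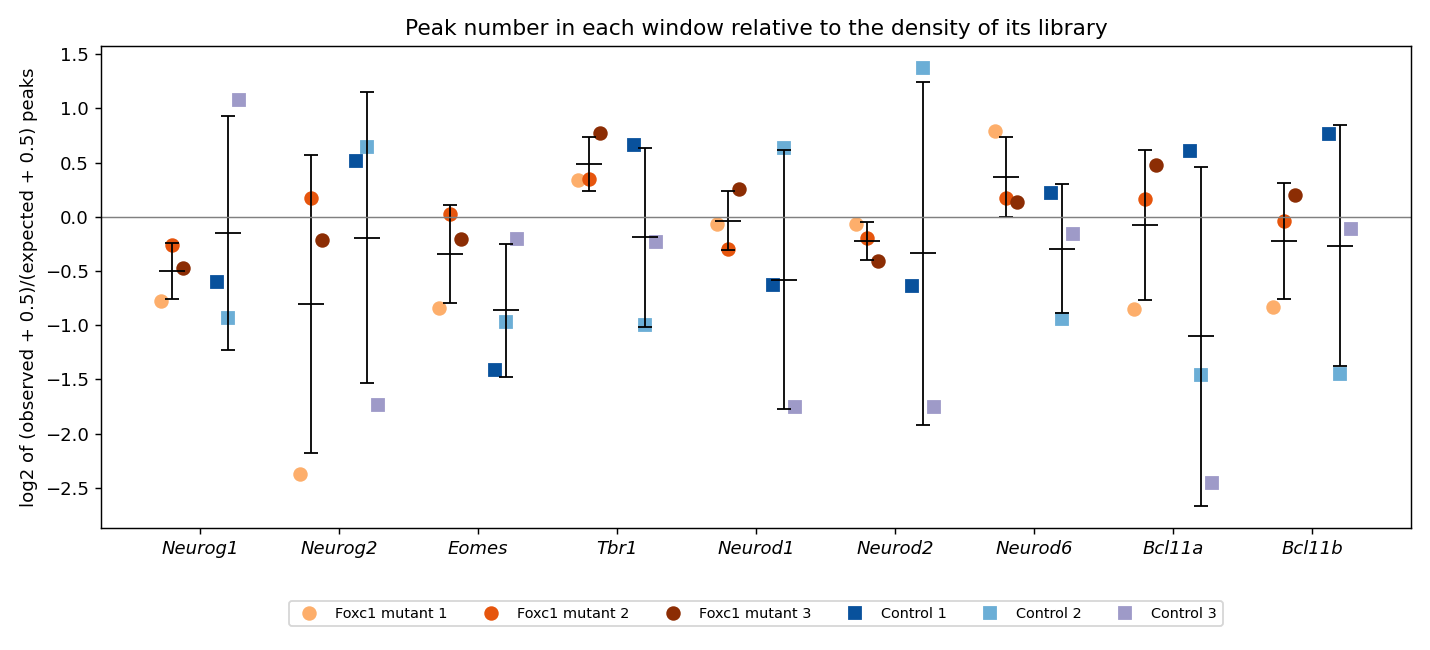
Log2 of the observed over the expected number of peaks (each plus 0.5) in each window, for 3 Foxc1 mutant libraries (circles, left of each pair) and 3 control libraries (squares, right), with mean and SD in black and 0 marking the density of the library. Mutant and control values overlap in each of the 9 genes, and control values spread from -2.45 to 1.37.

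Across the genome, 0 genes passed an adjusted p of 0.05 in limma (0% of those fitted), and 1086 had an unadjusted p below 0.05, of which 437 were higher (2.05% of all fitted) and 649 lower (3.05%) in mutant libraries. None of the 9 was among the 1086. Without control replicate 1 the count at the adjusted threshold was 116, 24 higher and 92 lower in mutant libraries, and again none of the 9 was among them. Of 20 other neurogenesis genes, all were fitted and 0 passed in either direction, 12 were positive, and their median difference was 0.08, against 0.10 over all fitted genes. Lists of cell type genes gave median differences of 0.49 (11 radial glia genes) and 0.23 (8 ventral interneuron genes). For 8 meningeal fibroblast genes and 7 microglia genes they were 0.26 and -0.02, and 0 genes passed in each list. A peak is a binding call and not a transcript, so these lists cannot check which cells were in the preparation.

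Around start sites, peaks were about as frequent at the 9 genes as at other genes. The 1 kb on both sides of the start site held a peak for 0, 4 and 6 of the 9 genes (mutant replicates 1, 2 and 3), against 5.61%, 34.8% and 56.3% of 17492 genes. In control replicates it was 3, 0 and 0 of the 9, against 21.3%, 0.612% and 1.5%. The gene itself was touched by a peak for 1, 6 and 6 of the 9 (mutant replicates), against 38.6%, 77.3% and 80.3% of all genes. For control replicates the number was 5, 0 and 0, against 56.7%, 13.5% and 25.2%. The spans of the 9 genes ran from 1.70 kb (Neurog1) to 97.0 kb (Bcl11a), and the part of gene length in these shares was not tested. Within 5 kb of the start site, a width chosen after the values were seen, Neurod6 had 6 peaks in mutant replicate 2, a number reached at 0.320% of the start sites, and Bcl11a had 7 in mutant replicate 3, reached at 0.389%. In the other long mutant list Neurod6 had 5 peaks and Bcl11a 2, reached at 5.97% and 48.3% of the start sites. In control replicate 1 the numbers were 1 and 0. The values of Neurod6 in mutant replicate 2 and Bcl11a in mutant replicate 3 were picked as the lowest shares of the 9 genes. Neurog1 and Neurod2 had 1 peak in mutant replicate 2, where the median of all start sites was 1. Both had 0 in mutant replicate 3, where that median was 2.

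The peaks in the windows had the same median height as their libraries. It was 4, 4 and 4 steps in mutant and 10, 2 and 2 steps in control replicates 1, 2 and 3. Their median width was 796, 738 and 741 bp in mutant replicates and 2327, 291 and 230.5 bp in control replicates. The tallest peak of the windows reached 6, 8 and 9 steps in mutant and 18, 3 and 2 steps in control replicates. When every list was cut to its top 11869 by total signal, the length of the shortest, the windows kept 10, 4 and 10 peaks in mutant and 6, 4 and 1 in control replicates. These peaks covered 7, 2 and 4 of the 9 windows (mutant replicates), against 43.6%, 37.4% and 34.5% of all genes. For control replicates the number was 4, 3 and 1, against 48%, 41.4% and 41.8%. Tbr1 kept peaks in all 3 mutant libraries, with 2, 2 and 5, and in control replicates 1 and 3, with 2 and 1. The strongest peaks of Neurod1 and Neurod6 in mutant replicate 3 lay over the genes, with 2 peaks of 7 and 7 steps and 2 of 8 and 7 steps.

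**Figure D3:**
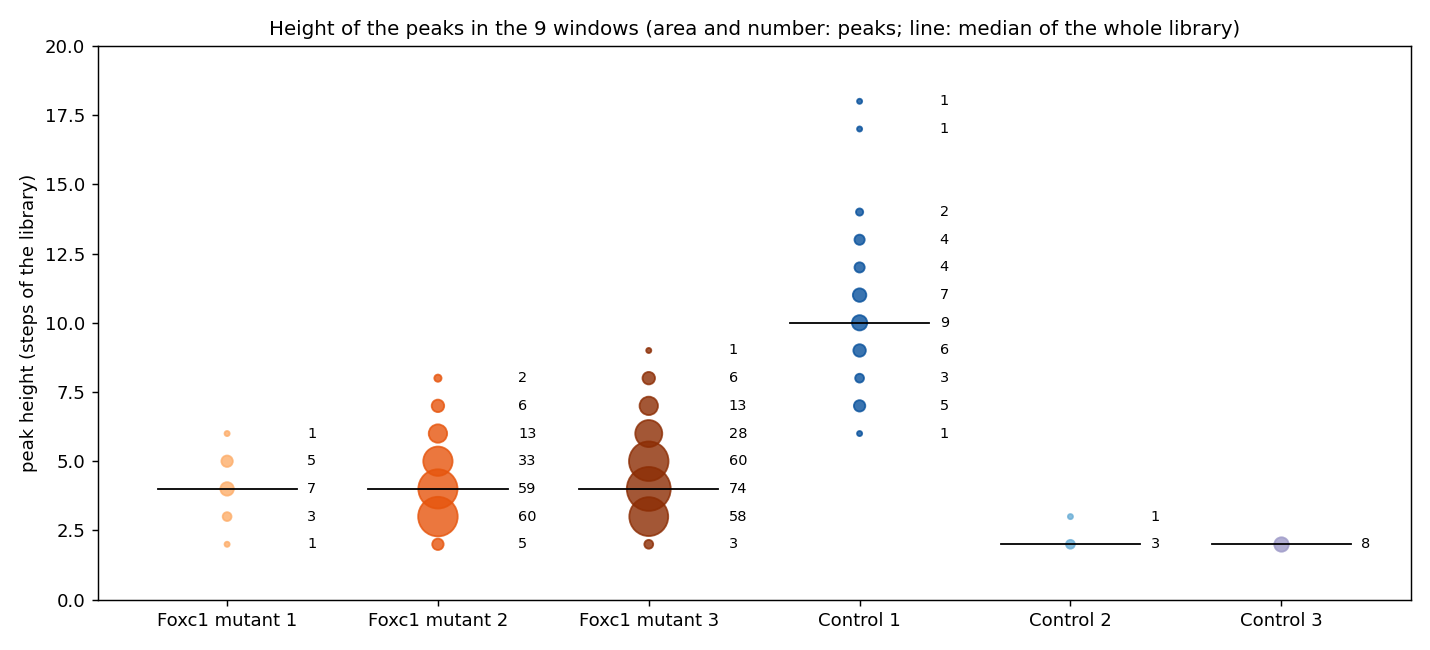
Height of the peaks in the 9 windows in steps of each library, with 3 Foxc1 mutant libraries left of 3 control libraries, where circle area and the number beside it give the peaks at that height and the line the median of the whole library. The windows' peaks are centred on the library medians of 4, 4 and 4 steps in mutant and 10, 2 and 2 steps in control replicates, and steps are not comparable between libraries.

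Most regions of the 9 windows were held by a single library. Overlapping peaks were merged in chains, so libraries that hold the same region need not all overlap each other. Merging peaks that overlap by at least 1 bp gave 375 regions, of which 89 (23.7%) were held by more than 1 library and 15 (4%) by 3 or more, against 25.9% and 5.25% of 805693 regions on the 21 chromosomes. Of the 89, 55 were held by mutant libraries alone, 34 by both genotypes and 0 by control libraries alone. Regions of both genotypes made up 9.07% of the 375, against 9.85% on the 21 chromosomes. Regions shared within 1 genotype alone were not counted over the chromosomes, so 55 and 0 have no such share beside them. Regions held by all 3 mutant and no control libraries numbered 3 (0.800%), against 0.740% on the 21 chromosomes, and they are those of Neurod6 and Bcl11b given above. These shares were near those of the genome. Mutant replicates 2 and 3 hold 421 of the 493 peaks of the windows, and the part of list length in which libraries share regions was not tested. Bcl11a, Bcl11b and Tbr1 had 18, 17 and 16 regions in more than 1 library, of 75, 66 and 43 regions in all. Neurod6 had 10 of 35, Neurod2 8 of 27 and the other 4 genes 4 to 6 of 27 to 36. The windows of Bcl11a and Bcl11b were the widest, at 197 and 194 kb. With lists of equal length the windows held 35 regions, and none of them was shared between libraries.

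**Figure D4:**
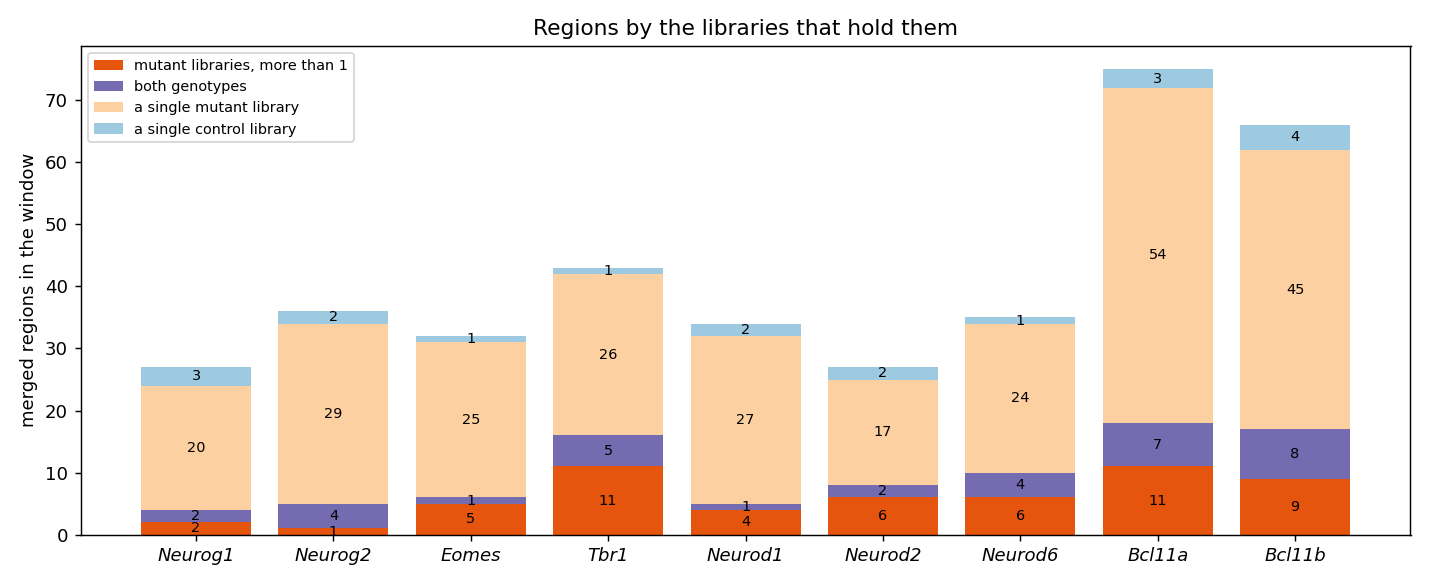
Merged regions in each of the 9 windows by the libraries that hold them: more than 1 Foxc1 mutant library and no control, both genotypes, a single mutant library or a single control library. Regions of a single mutant library make up 267 of the 375, and no region was held by control libraries alone in more than 1 library.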

How the data were processed

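CUT&RUN libraries of Myc-tagged RARα from Prom1-positive cortical progenitors (digitonin 0.05%, per the labels' protocols) were analysed from 6 deposited peak lists. Groups and replicate numbers came from the titles. The authors called peaks with SEACR on mm10, per the submitters' processing notes, 1 list per library. Not given in the sources used here are SEACR's version and settings, the aligner, the scaling and any use of isotype libraries. Each deposited peak has a total and a max signal, both the authors' values. In a library, every max signal under 100 steps equals a whole number of 1 unit (tolerance 0.01), the step. Read depth is unknown, so a window without a peak is not shown to be unbound, and no interval is given.

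Peaks on 21 chromosomes were kept, and 0 or 1 per library was left out. Gene spans came from the RefSeq table of GRCm38.p6, the assembly of mm10; promoters and start sites came from RefSeq for 17492 genes, the 9 included. Expected peaks are the library's peaks per base (2661 Mb in all) times the window width or, over a gene, its length. Peak width is not added, though a peak counts when it overlaps by 1 bp. The expected numbers therefore run low, most of all for short genes and wide peaks. Windows of the same width were laid end to end in place of random ones. Density was tested with limma 3.58.1 (trend, R 4.3.3), and the code was tested on simulated data. The genes and lists were chosen with earlier results of these data known. From the list of other neurogenesis genes, 2 are not reported here and were left out; they were not chosen by their values. The text names all 9 genes, the tallest peaks of each window and library (ties exist), and regions held by 3 or more libraries; not every such peak is printed. Alternatives tried: single libraries left out, a replicate block, equal-length lists, the upper part of each list by total signal, flanks of 25 and 100 kb, 50% overlap, covered bases, a pseudocount of 1, no filter and median centring.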

Additional observations from a re-analysis of the deposited data

How the results depend on the processing

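Peak density of the 9 genes passed the threshold under none of the alternatives run (lowest adjusted p in limma 0.184 over 150 values), and the sign of its difference, mutant minus control, turned in 22 of them; the cause was not tested. The median of the 9 differences, 0.52, was 0.27 to 0.52 when each library was left out. It was 0.77 over the 6 genes that could be fitted in equal-length lists. Without control replicates 2 and 3 together, a setting chosen after seeing the data, it was 0.10, against -0.24 over all fitted genes. Leaving out each library in turn moved Neurog1 between -0.74 and 0.27, Neurog2 between -1.39 and 0.17, Neurod1 between -0.037 and 1.16, Neurod2 between -0.59 and 0.97 and Bcl11b between -0.55 and 0.56. Without control replicates 2 and 3 together, Neurog1 was 0.10, Tbr1 -0.17, Bcl11a -0.68 and Bcl11b -0.98. Neurod2 turned to -0.53 with equal-length lists, -0.51 with flanks of 25 kb, -0.25 with flanks of 100 kb, -0.00042 with a pseudocount of 1 and -0.13 after median centring. Bcl11b turned to -0.16 with flanks of 25 kb, -0.0073 by covered bases, -0.096 with a pseudocount of 1 and -0.20 after median centring, and Neurog1 to 0.35 with flanks of 25 kb.

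The number of genes past an adjusted p of 0.05 in limma, 0 of those fitted, was 0 to 116 when each library was left out (116 without control replicate 1), 1 with equal-length lists, 4 in the upper part of each list by total signal, 5 with flanks of 25 kb and 7 with the replicate block. Same-numbered mutant and control libraries did not deviate together (correlations of -0.047, -0.0088 and -0.019 across genes in replicates 1, 2 and 3), so the numbers were not taken to pair them.

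Genes of the 9 with a peak fell to 2 and 4 in mutant replicates 2 and 3 and 4 and 1 in control replicates 1 and 3 with equal-length lists. In control replicate 3 they were 3 in the upper part of the list, 1 with flanks of 25 kb and 8 with flanks of 100 kb. The 375 regions became 35, 218, 239 and 659 with equal-length lists, the upper part of each list, and flanks of 25 and 100 kb. Regions in more than 1 library became 0, 35, 56 and 154, and those in both genotypes 0, 10, 22 and 57. Regions in 3 or more libraries became 0 with equal-length lists, 2 in the upper part and 26 with flanks of 100 kb.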
